A study of Mus musculus with 6 samples.

Results

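The conjugating enzymes described here are the UDP-glucuronosyltransferases (UGT), the glutathione S-transferases (GST) and the sulfotransferases (SULT) of mouse liver. They were taken from the gene names of the deposited table: names that start with Ugt1, Ugt2 or Ugt3 and a letter, Gst and a letter, or Sult and a digit, without a hyphen. This gave 65 of 55573 genes, namely 21 UGT, 23 GST and 21 SULT genes, and left out 8 names with a hyphen. The study profiled polyA RNA from the livers of generation 3 mice on normal feed. Control mice, named DKO, were labelled mTR-/-Wrn-/-, that is, without the RNA template of telomerase and the RecQ helicase Wrn. The other mice, named p21TKO, were labelled p21-/-mTR-/-Wrn-/-, the added deletion being that of p21, a cyclin-dependent kinase inhibitor (Cdkn1a). Both groups are labelled as lacking mTR and Wrn, and no liver labelled as having either gene intact was compared. Every sample title carries the code 2M, which the labels do not explain, and sex is not given. The series' text states that the p21TKO mice already looked progeroid.

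These enzymes join a polar group to drugs, hormones, bilirubin, bile acids and reactive lipids so that they can be excreted. UGT enzymes sit in the endoplasmic reticulum and transfer glucuronic acid from UDP-glucuronic acid, GST enzymes add glutathione, mostly in the cytosol, and SULT enzymes transfer a sulfonate group from the donor PAPS. In mouse liver several of these genes are known to differ between males and females, among them Sult2a1 and Sult3a1, which are known for higher levels in females.

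Gene coordinates are those of GENCODE M21 (GRCm38). Values were deposited as FPKM (fragments scaled to exon length and library size), with 3 libraries per group and FPKM denominators that corresponded to 19363284 to 27061290 reads. No label says that the 3 replicates of a group are different mice, and a p-value here reflects only how much these libraries vary. Cdkn1a stood at 0.761, 1.79 and 0.405 FPKM in DKO replicates 1 to 3 and at 1.41, 11.05 and 6.5 FPKM in the libraries labelled p21TKO. Which exons the p21 allele lacks is not stated in the labels, so these values cannot check the deletion. Wrn had 36 to 48 reads in each of the 6 libraries, and Terc (mTR), whose RNA has no polyA tail, was at 0 in all, so neither checks its label. Every direction below rests on the labels. The labels give no sex, and the Y-linked genes Ddx3y, Eif2s3y, Kdm5d and Uty summed to 19.2, 23.3 and 19.3 FPKM in DKO replicate 2, DKO replicate 3 and p21TKO replicate 1 and to 0 in the other 3 libraries. Each group thus holds libraries of at least 2 animals. On the first principal component (57.2% of the variance) p21TKO replicates 2 and 3 stood at 44.4 and 56.6, apart from the other libraries (-34.6 to -7.7). The same 2 libraries had the highest summed FPKM of 13 neutrophil markers (2188 and 692, against 25.6 to 71.4 elsewhere). Most of these sums came from Lcn2 (1640.2 and 468 FPKM in the 2 libraries), which is also in the acute phase list. Both libraries were also highest for the 26 acute phase genes (81650 and 56210, against 10590 to 18550).

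Promoter sequences of 6 members are shown. Sult1e1 and Sult2a8 had the widest genotype differences, and Sult3a1, Sult2a5 and Sult2a6 had reads almost only in libraries without Y-linked transcripts. Gsta3 was chosen because it was the most abundant of the 3 members (with Gstm5 and Gstm7) whose window held the antioxidant response element core. The sequences are the RefSeq windows from 250 bases before to 50 bases after a transcription start (GRCm38.p6), and 57 of the 65 members had 1 or more such windows. They are written 5′ to 3′ in the direction of the gene, and capitals mark a match on either strand to one of 5 motifs. The motifs were the antioxidant response element core TGACNNNGC, the STAT5 site TTCNNNGAA, the HNF1 motif GTTAAT, the dioxin response element core GCGTG and the TATA box TATAAA. The windows shown are chr5:87591562-87591861 (minus strand) for Sult1e1, chr7:14438502-14438801 (minus strand, 1 of 2 windows) for Sult2a8 and chr10:33857472-33857771 (plus strand) for Sult3a1. Those of Sult2a5, Sult2a6 and Gsta3 are chr7:13623717-13624016 (plus strand), chr7:14254821-14255120 (minus strand) and chr1:21240335-21240634 (plus strand).
Sult1e1: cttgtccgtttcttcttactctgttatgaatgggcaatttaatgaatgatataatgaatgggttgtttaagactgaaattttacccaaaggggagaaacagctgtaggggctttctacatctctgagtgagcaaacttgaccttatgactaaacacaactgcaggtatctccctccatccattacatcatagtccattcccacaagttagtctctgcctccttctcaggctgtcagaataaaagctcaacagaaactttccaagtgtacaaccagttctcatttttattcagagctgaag
Sult2a8: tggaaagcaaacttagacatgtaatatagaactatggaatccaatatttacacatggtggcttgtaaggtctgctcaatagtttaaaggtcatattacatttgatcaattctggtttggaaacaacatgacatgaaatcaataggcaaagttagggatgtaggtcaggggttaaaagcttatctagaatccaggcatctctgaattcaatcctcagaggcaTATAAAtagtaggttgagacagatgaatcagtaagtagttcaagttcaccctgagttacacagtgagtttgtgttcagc
Sult3a1: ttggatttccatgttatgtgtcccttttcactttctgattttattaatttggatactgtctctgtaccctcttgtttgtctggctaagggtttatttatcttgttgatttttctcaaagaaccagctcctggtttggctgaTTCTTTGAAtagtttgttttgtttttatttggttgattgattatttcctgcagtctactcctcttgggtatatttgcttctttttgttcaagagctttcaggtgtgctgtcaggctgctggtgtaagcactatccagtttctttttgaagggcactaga
Sult2a5: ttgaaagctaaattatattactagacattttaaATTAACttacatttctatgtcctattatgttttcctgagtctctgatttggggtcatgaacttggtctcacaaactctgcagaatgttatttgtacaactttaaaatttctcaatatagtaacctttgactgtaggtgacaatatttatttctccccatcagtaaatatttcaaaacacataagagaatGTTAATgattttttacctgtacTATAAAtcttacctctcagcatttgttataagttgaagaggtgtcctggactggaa
Sult2a6: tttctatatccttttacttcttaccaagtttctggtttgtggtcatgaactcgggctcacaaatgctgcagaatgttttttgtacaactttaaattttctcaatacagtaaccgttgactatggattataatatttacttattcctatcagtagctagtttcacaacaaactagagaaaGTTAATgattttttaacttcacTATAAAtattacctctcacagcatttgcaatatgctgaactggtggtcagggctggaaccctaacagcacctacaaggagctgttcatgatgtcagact
Gsta3: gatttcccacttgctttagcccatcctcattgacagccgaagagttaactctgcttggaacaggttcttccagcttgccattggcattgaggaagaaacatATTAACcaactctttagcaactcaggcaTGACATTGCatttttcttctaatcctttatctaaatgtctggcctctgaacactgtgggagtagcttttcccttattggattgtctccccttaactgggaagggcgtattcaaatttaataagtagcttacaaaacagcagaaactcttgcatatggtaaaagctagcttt

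The HNF1 motif was in 14 of 69 member windows (20.3%), among them 6 of 19 UGT, 1 of 30 GST and 7 of 20 SULT windows, and in 7.1% of all 32851 windows. Sult2a5 and Sult2a6 carried it at -28 and -71 from the start, followed by a TATA box at -6 and -49, and Sult2a5 had a further one at -217. In the Sult2a8 window shown, which lies inside the gene, a TATA box began at -29. The other Sult2a8 window, nearer the 5′ end of the gene, had its TATA match at -223. In Sult3a1 a STAT5 site began at -109 and in Gsta3 an antioxidant response element core at -121, with an HNF1 motif at -149. The antioxidant core was in 3 of 69 member windows (4.35%) and 12.4% of all windows. For the STAT5 site the shares were 5.8% and 8.3%, for the dioxin element 20.3% and 32.4%, and for the TATA box 21.7% and 13.6%. The Sult1e1 window held none of the 5. A match to these letters is a description of the window and not evidence of binding.

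Some members are so alike that reads may have been divided between copies, and their values are uncertain. By the longest open reading frame of their GENCODE M21 transcripts, 10 of 60 members compared were at least 95% identical to another member, and 23 were at least 90% identical. The closest pairs were Ugt1a6a and Ugt1a6b (98.4%), Gstp1 and Gstp2 (98.1%), Gsta1 and Gsta2 (97.5%), Ugt2b5 and Ugt2b38 (97%) and Ugt1a9 and Ugt1a10 (95.3%). Sult2a1 and Sult2a5 were 94.9% identical, Ugt3a1 and Ugt3a2 93.3%, and Sult3a1 and Sult3a2 90.9%. The 9 Ugt1a genes are variants of 1 locus on chromosome 1 that join their own first exon to common last exons. Between 50.3% (Ugt1a6a) and 82.7% (Ugt1a1) of their exon bases also belonged to another gene, and the labels do not say how reads on such bases were counted. Of the 10 Ugt2 members, Ugt2a1 and Ugt2a2 shared 98.8% and 94.5% of their exon bases and were at 0 in all 6 libraries.

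Summed by family, UGT and GST transcripts were low in p21TKO replicates 2 and 3 and not in p21TKO replicate 1. The summed SULT level was highest in the 3 libraries without Y-linked transcripts, in p21TKO replicate 3 partly through Sult1e1. Summed over the 21 UGT genes, the level was 1261, 1385 and 1794 FPKM in DKO replicates 1 to 3 and 1402, 635 and 364 FPKM in p21TKO replicates 1 to 3. Most of this sum came from Ugt2 genes. The Ugt1 genes summed to 102, 19.9 and 79.9 FPKM in DKO and 19.2, 94.1 and 56.8 FPKM in p21TKO. The Ugt3 genes summed to 161.4, 96 and 147 FPKM in DKO and 71.6, 74.3 and 31.1 FPKM in p21TKO, so p21TKO replicate 1 was also below DKO. The 23 GST genes summed to 1873, 2477 and 1711 FPKM in DKO and 2401, 1214 and 975 FPKM in p21TKO. The 21 SULT genes summed to 938, 538 and 546 FPKM in DKO and 547, 802 and 695 FPKM in p21TKO, with the 3 libraries that lack Y-linked transcripts highest. In p21TKO replicate 3, Sult1e1 made up 174 FPKM of this sum, against 0.335 FPKM in DKO replicate 1. The Sult1 sums had the same 3 libraries highest (433, 504 and 607 FPKM). The Sult2 sums did not, at 323, 267 and 328 FPKM in DKO and 265, 274 and 79.6 FPKM in p21TKO. In bulk tissue, fewer cells of a type and less RNA per cell cannot be told apart. The 14 hepatocyte markers summed to 54710 to 73900 FPKM in DKO and 68520 to 77590 FPKM in p21TKO. Alb was the largest part (24412 to 37503 FPKM), and Fgb is also in the acute phase list. Of the 14 markers 9 had higher and 5 lower means in p21TKO, so the sum does not measure hepatocyte content.

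**Figure D1:**
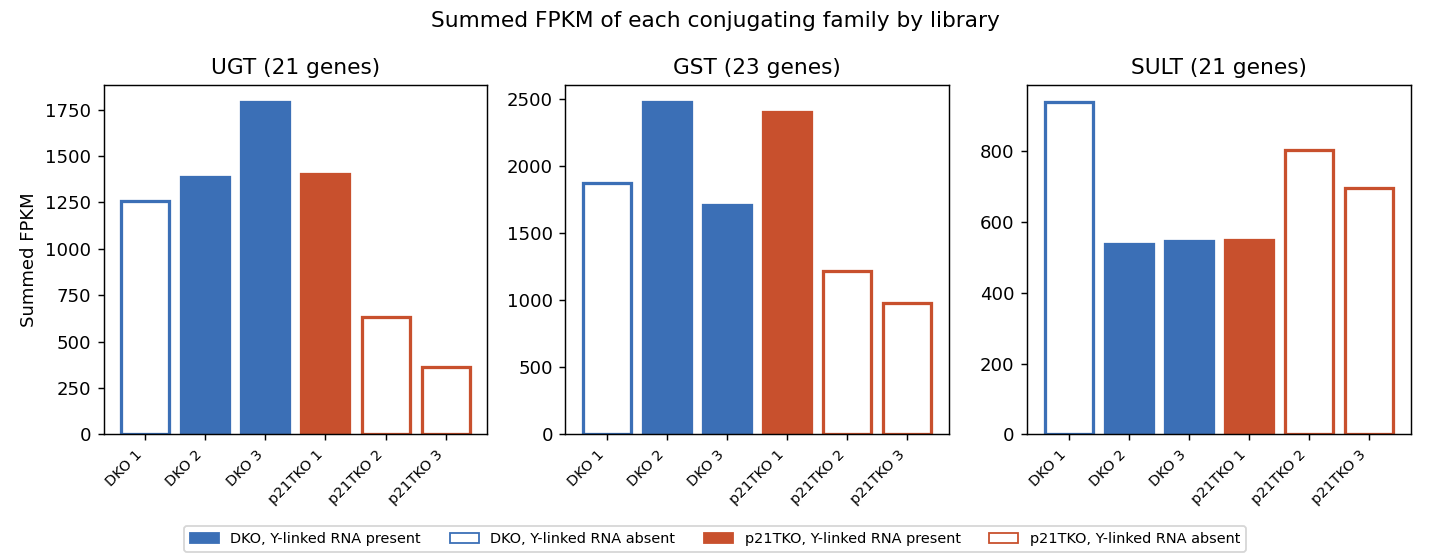
Summed FPKM (y axis) of the UGT, GST and SULT genes in each of the 6 libraries (x axis), with filled bars for libraries with Y-linked transcripts and open bars for those without. The UGT bars of p21TKO replicates 2 and 3 (635 and 364 FPKM) are the lowest, and the SULT bars are highest in the 3 open libraries.

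None of the members passed the genotype test over all genes. Of the 65 members, 45 had a mean of at least 1 FPKM and were tested (15 UGT, 18 GST and 12 SULT genes), and 0 were called at an adjusted p under 0.05 (limma on log2(FPKM + 1), Benjamini-Hochberg over 9538 genes). The share called of all tested genes was 0.0734% (0.0315% higher and 0.0419% lower), a background at which 0 of 45 is not a result about the members. Limma adjusted p ranged from 0.495 to 0.999 over the 45 members, and limma voom on recovered reads called 0 members as well. At an unadjusted p under 0.05 there were 12 members (1 with higher and 11 with lower values), 26.7% of those tested against 9.38% of all genes. The higher one, Sult1e1, passed the filter only through p21TKO. Among the lower ones, Ugt1a6a passed it only through DKO, so the filter set the direction of these genes. In 34 of the 45 members the p21TKO mean of log2(FPKM + 1) was the lower one, and higher and lower means below refer to this scale. The median log2 difference was -0.51, against 0.0016 over all tested genes. By family it was -1.03 for UGT genes (14 of 15 lower), -0.42 for GST genes (15 of 18 lower) and 0.17 for SULT genes (5 of 12 lower). The SULT median changed sign with a term for Y-linked transcripts (-0.39) and without p21TKO replicates 2 and 3 (-0.28).

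The 3 values of the groups did not overlap for 7 of the 45 members, which was 15.6% against 15.4% of all tested genes, so separation as such was no more frequent than elsewhere. All 7 were lower in p21TKO, where 8.49% of all tested genes were separated in that direction and 6.93% in the other. They were Ugt1a6a, Ugt2b34, Ugt3a1, Ugt3a2, Gstm3, Gstm4 and Gsto1. Ugt1a6a was under 1 FPKM in every p21TKO library and passed the filter only through DKO, so the filter set its direction. The library with the lowest value was p21TKO replicate 3 for 27 of the 45 members (60.0%), against 27.3% of all tested genes. It was lowest for 12 of 15 UGT genes, 12 of 18 GST genes and 3 of 12 SULT genes. DKO replicates 1 and 3 held the highest value of 14 and 12 members (31.1% and 26.7%, against 11.7% and 15.8% of all tested genes).

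The outcome rested on p21TKO replicate 1, whose group otherwise lacks Y-linked transcripts. Without it, 9 of the 45 members passed (limma), 1 higher and 8 lower, where 5.19% of all tested genes were called, 2.36% higher and 2.83% lower. The 8 lower members were Sult2a8 (log2 difference -6.40, limma adjusted p = 0.00356), Ugt2b1 (-3.86), Gstm6 (-2.81), Sult5a1 (-3.02), Gstm3 (-1.74), Sult1c2 (-1.48), Ugt2a3 (-1.56) and Ugt3a1 (-2.63). Sult1e1 was the higher one (6.38, limma adjusted p = 0.00392). It was under 1 FPKM in every DKO library and passed the filter only through p21TKO replicates 2 and 3, so the filter set its direction. The comparison without p21TKO replicate 1 sets 2 libraries without Y-linked transcripts against 3 DKO libraries of which 2 have them. With a term for Y-linked transcripts and all 6 libraries, 0 members passed (limma). The median difference of the 45 members was -0.089 within the libraries with Y-linked transcripts and -0.86 within those without them. Each of these 2 differences rests on 1 library of one genotype and 2 of the other.

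**Figure D2:**
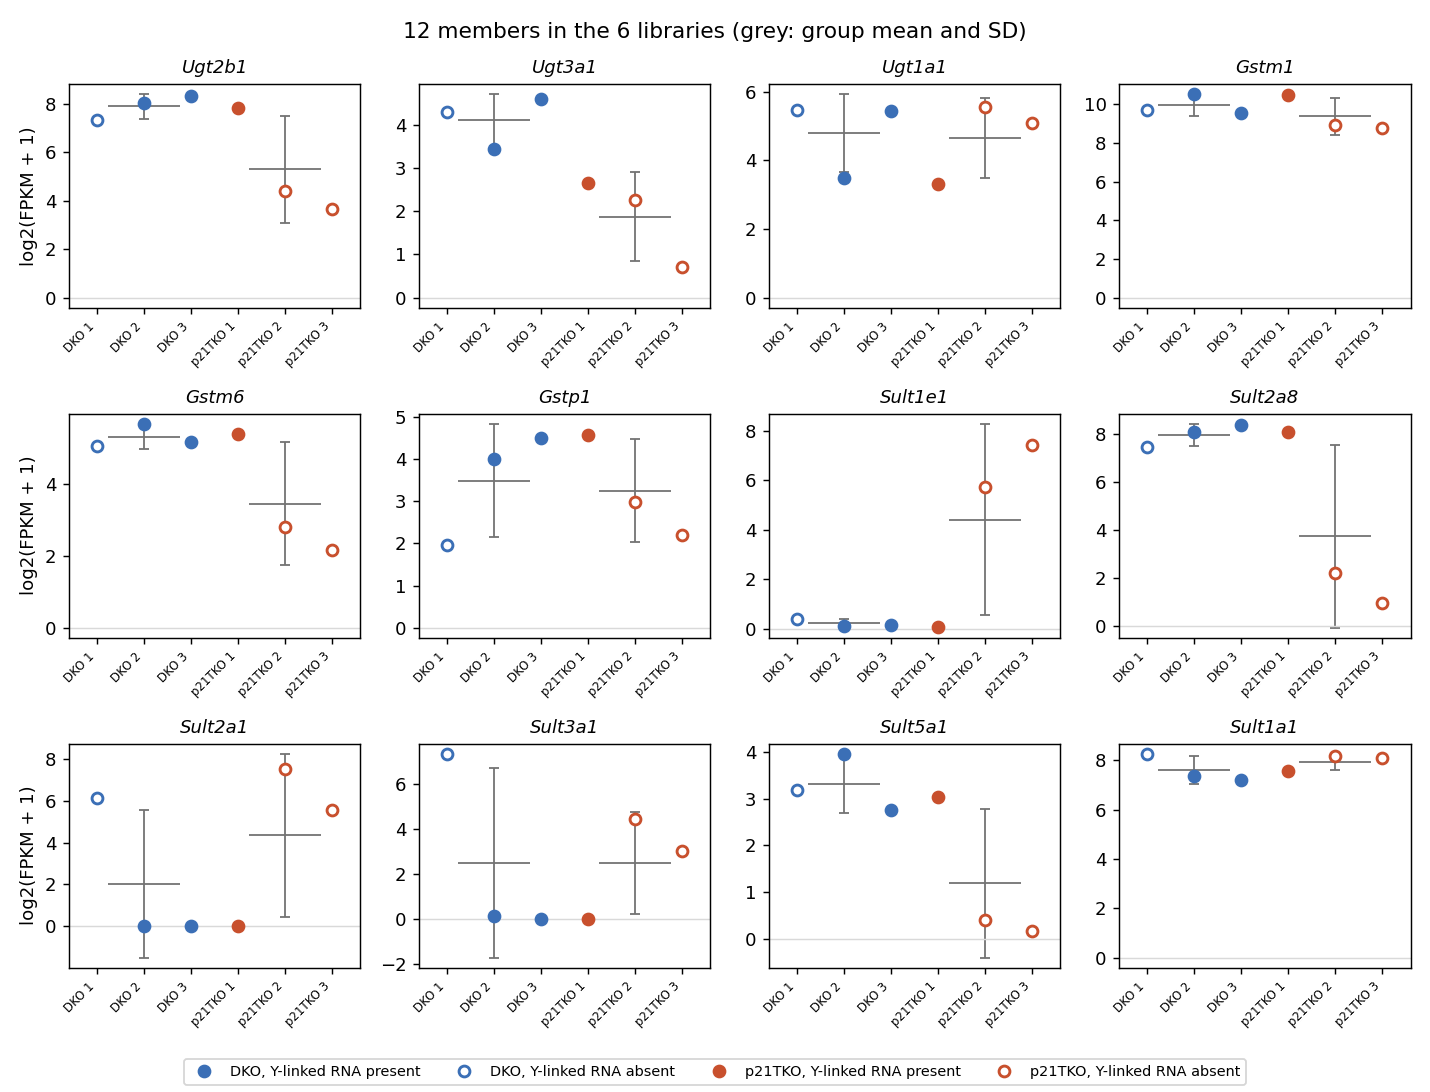
log2(FPKM + 1) (y axis) of 12 members in each of the 6 libraries (x axis), with filled points for libraries with Y-linked transcripts and the group mean and SD in grey. Sult1e1 is near 0 except in p21TKO replicates 2 and 3, and Sult2a1 and Sult3a1 are near 0 in the 3 filled libraries.

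Among the Ugt1 genes, which include the bilirubin-conjugating enzyme Ugt1a1, 1 of the 5 tested had separated groups. Ugt1a1 (ENSMUSG00000089960, chromosome 1, 88211959 to 88218997) stood at 43.3, 10.2 and 42.4 FPKM in DKO replicates 1 to 3 and 8.96, 45.6 and 33.1 FPKM in p21TKO replicates 1 to 3. DKO replicate 2 and p21TKO replicate 1 were low and the other 4 libraries high, so the groups overlapped (difference -0.15 ± 0.75 on the log2 scale, SE, limma adjusted p = 0.954). Ugt1a5 followed a similar order, at 34.8, 2.17 and 10.4 FPKM in DKO and 2.06, 35.3 and 16.3 FPKM in p21TKO (difference 0.19 ± 1.14 on the log2 scale, SE, limma adjusted p = 0.962). Its 3 values in libraries without Y-linked transcripts all lay above the other 3. Ugt1a6b was measured at 8.18, 3.18 and 14 FPKM in DKO and 3.14, 9.33 and 5.34 FPKM in p21TKO (difference -0.36 ± 0.53 on the log2 scale, SE, limma adjusted p = 0.818). Its near copy Ugt1a6a, which like it acts on small phenols, was low throughout, at 1.72, 1.07 and 1.46 FPKM in DKO and 0.755, 0.667 and 0.351 FPKM in p21TKO. Each p21TKO value of Ugt1a6a lay below each DKO value, and the difference did not pass (difference -0.60 ± 0.18 on the log2 scale, SE, limma adjusted p = 0.523). With every p21TKO value under 1 FPKM, Ugt1a6a passed the filter only through DKO, so the filter set its direction. Ugt1a9 was at 13.5, 2.84 and 11.03 FPKM in DKO and 4.03, 2.86 and 1.05 FPKM in p21TKO, with the lowest value in p21TKO replicate 3 (difference -1.36 ± 0.56 on the log2 scale, SE, limma adjusted p = 0.523). DKO replicate 2 was as low as p21TKO replicate 2. The remaining Ugt1 members stayed under the filter: Ugt1a2, Ugt1a7c, Ugt1a8 and Ugt1a10 never exceeded 0.554 FPKM.

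The Ugt2 genes, whose enzymes act mainly on steroids, bile acids and drugs, made up most of the UGT transcripts and all 8 tested ones had lower means in p21TKO. The gene with the widest change among them was Ugt2b1 (ENSMUSG00000035836, chromosome 5, 86916638 to 86926530), at 160.1, 262 and 318 FPKM in DKO replicates 1 to 3 and 224, 20.1 and 11.7 FPKM in p21TKO replicates 1 to 3. The first p21TKO library lay among the DKO libraries and the other two were far below (difference -2.60 ± 1.03 on the log2 scale, SE, limma adjusted p = 0.523). Group means were 247 ± 80.2 FPKM (SD, n = 3) for DKO against 85.2 ± 120.0 FPKM (SD, n = 3) for p21TKO. Its difference was -0.37 within the libraries with Y-linked transcripts and -3.30 within those without them. Ugt2b5, the most abundant UGT gene, stood at 262, 425 and 534 FPKM in DKO and 496, 173 and 80.4 FPKM in p21TKO (difference -1.03 ± 0.67 on the log2 scale, SE, limma adjusted p = 0.61). DKO replicate 1 was the lowest of its group, so the 3 libraries without Y-linked transcripts were all below the 3 with them. Ugt2b36 showed 237, 239 and 334 FPKM in DKO and 252, 115 and 74 FPKM in p21TKO (difference -1.04 ± 0.47 on the log2 scale, SE, limma adjusted p = 0.531), again with the 3 libraries without Y-linked transcripts lowest.

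Ugt2b34 was the Ugt2 member whose groups did not overlap. It stood at 147, 144 and 136 FPKM in DKO replicates 1 to 3 and 128, 67.5 and 38.6 FPKM in p21TKO replicates 1 to 3, a tight DKO group above a wide p21TKO group (difference -1.02 ± 0.44 on the log2 scale, SE, limma adjusted p = 0.523). Ugt2a3 was at 127, 91.8 and 131 FPKM in DKO and 102, 40.9 and 36.1 FPKM in p21TKO, with p21TKO replicate 1 among the DKO values (difference -1.10 ± 0.43 on the log2 scale, SE, limma adjusted p = 0.523). The other tested members were Ugt2b35 (33.4 to 96.9 FPKM over the 6 libraries), Ugt2b38 (1.35 to 16.3 FPKM) and Ugt2b37 (0.215 to 7.14 FPKM). Ugt2b35 and Ugt2b38 were lowest in the 3 libraries without Y-linked transcripts, and Ugt2b37 was highest in DKO replicate 1. Over the 8 tested Ugt2 genes the median difference was -0.095 within the libraries with Y-linked transcripts and -1.43 within those without them.

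Both Ugt3 genes, which encode enzymes that use sugar donors other than UDP-glucuronic acid, had separated groups. Ugt3a1 (ENSMUSG00000072664, chromosome 15, 9276888 to 9315032), which uses UDP-N-acetylglucosamine, stood at 18.6, 9.85 and 23.4 FPKM in DKO replicates 1 to 3 and 5.28, 3.82 and 0.637 FPKM in p21TKO replicates 1 to 3. Every p21TKO library was below every DKO library, and the member had the smallest p of all 45 (difference -2.24 ± 0.55 on the log2 scale, SE, limma adjusted p = 0.495). Ugt3a2 was at 143, 86.2 and 124 FPKM in DKO and 66.3, 70.5 and 30.5 FPKM in p21TKO (difference -1.12 ± 0.40 on the log2 scale, SE, limma adjusted p = 0.523). The Ugt3a1 difference was -1.37 within the libraries with Y-linked transcripts and -2.81 within those without them, and that of Ugt3a2 was -0.63 within the libraries with Y-linked transcripts and -1.60 within those without them. Both genes lie side by side on chromosome 15 and are 93.3% identical in coding sequence, and whether reads were divided between them was not tested.

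**Figure D3:**
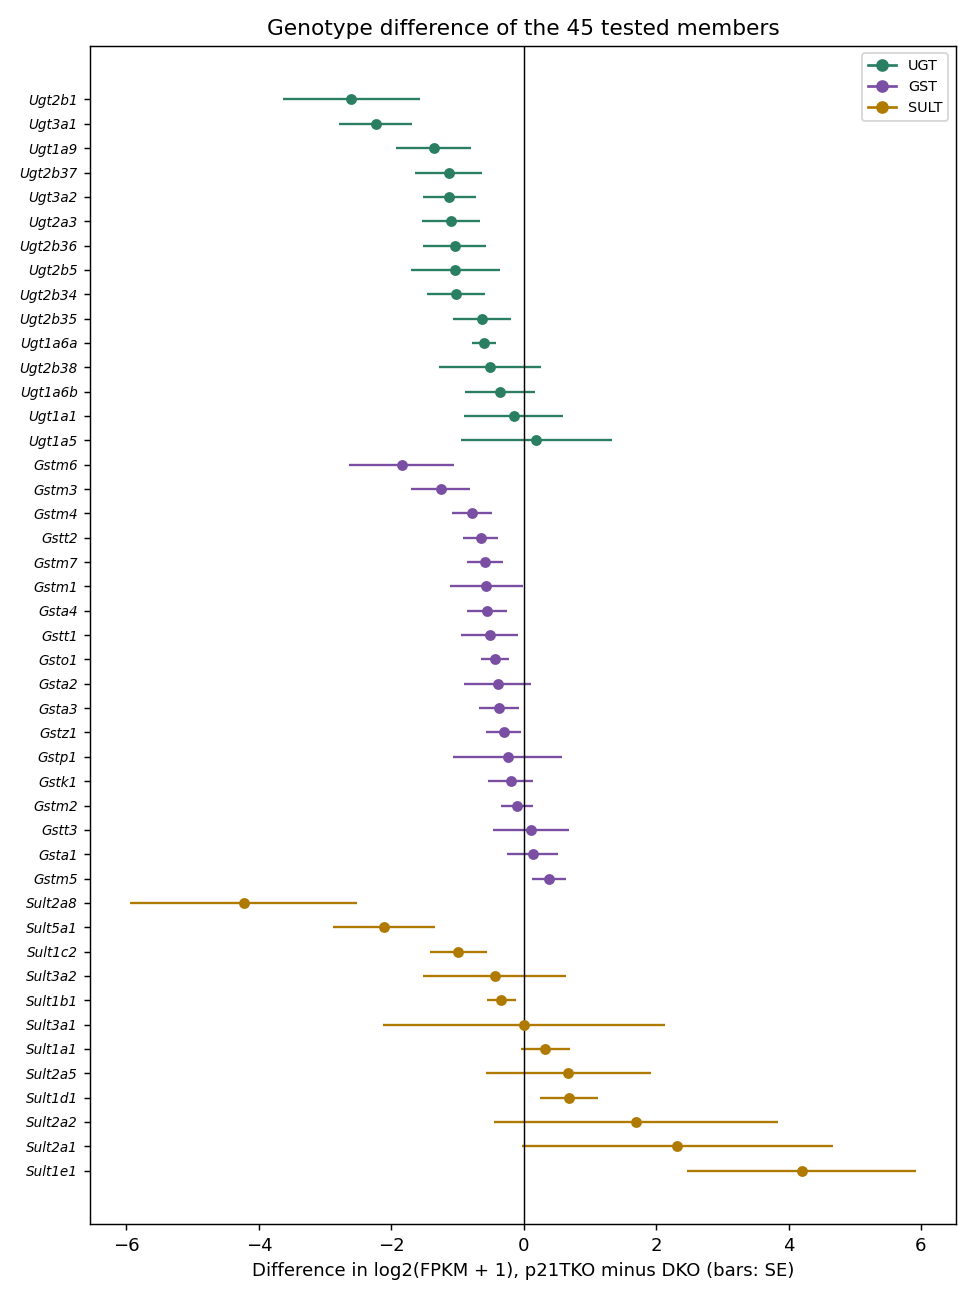
Difference in log2(FPKM + 1) between p21TKO and DKO (x axis; bars, SE) for the 45 tested members (y axis), coloured by family. Of the 15 UGT genes 14 lie below 0 and of the 18 GST genes 15, while SULT genes run from -4.23 (Sult2a8) to 4.20 (Sult1e1).

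The alpha class of GST, which detoxifies lipid peroxidation products and epoxides, was led by Gsta3 (ENSMUSG00000025934, chromosome 1, 21240589 to 21265661), the form linked in mice to aflatoxin resistance. It stood at 311, 279 and 337 FPKM in DKO replicates 1 to 3 and 265, 289.8 and 175 FPKM in p21TKO replicates 1 to 3 (difference -0.37 ± 0.30 on the log2 scale, SE, limma adjusted p = 0.671). The groups overlapped, and only p21TKO replicate 3 was clearly below the rest. Gsta4, which conjugates the lipid aldehyde 4-hydroxynonenal, was at 32, 31.6 and 27 FPKM in DKO and 31.4, 17.8 and 14.6 FPKM in p21TKO (difference -0.55 ± 0.30 on the log2 scale, SE, limma adjusted p = 0.573). Here p21TKO replicate 1 matched the DKO libraries and the other p21TKO libraries were lower. Gsta2 was at 9.83, 10.9 and 13.7 FPKM in DKO and 20.5, 6.22 and 4.36 FPKM in p21TKO (difference -0.40 ± 0.50 on the log2 scale, SE, limma adjusted p = 0.785), highest in p21TKO replicate 1. Its near copy Gsta1 ranged from 0.261 to 1.999 FPKM.

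The mu class lies as a cluster of 7 genes between 107895821 and 108044894 on chromosome 3, and 6 of the 7 had lower means in p21TKO. Gstm1 (ENSMUSG00000058135, chromosome 3, 108012255 to 108017973), the most abundant conjugating enzyme transcript, stood at 853, 1498 and 749 FPKM in DKO replicates 1 to 3 and 1414, 482 and 434 FPKM in p21TKO replicates 1 to 3. DKO replicate 2 and p21TKO replicate 1 were high and p21TKO replicates 2 and 3 low, so the groups overlapped (difference -0.56 ± 0.55 on the log2 scale, SE, limma adjusted p = 0.725). The steepest change in the cluster was that of Gstm6, at 31.9, 49.7 and 34.5 FPKM in DKO and 40.7, 5.91 and 3.44 FPKM in p21TKO (difference -1.84 ± 0.79 on the log2 scale, SE, limma adjusted p = 0.523). Its difference was -0.025 within the libraries with Y-linked transcripts and -2.57 within those without them. Gstm3 was at 53.7, 41.7 and 44.4 FPKM in DKO and 37.8, 16.6 and 10.4 FPKM in p21TKO and Gstm4 at 24.9, 24.4 and 25.6 FPKM in DKO and 21.5, 13.6 and 9.42 FPKM in p21TKO. In both genes p21TKO replicate 1 was just below the DKO libraries and the other 2 were further down. The tests gave a difference -1.26 ± 0.44 on the log2 scale, SE (limma adjusted p = 0.523) for Gstm3 and a difference -0.78 ± 0.30 on the log2 scale, SE (limma adjusted p = 0.523) for Gstm4.

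Neighbours in the cluster did not all follow. Gstm2 was nearly level, at 39, 45.3 and 32.5 FPKM in DKO and 44, 33 and 31.8 FPKM in p21TKO (difference -0.10 ± 0.24 on the log2 scale, SE, limma adjusted p = 0.891). Gstm7 ranged from 17.9 to 39.0 FPKM and was lowest in p21TKO replicates 2 and 3. Gstm5 was the only mu gene with a higher p21TKO mean, at 7.13, 4.91 and 4.65 FPKM in DKO and 5.09, 8.25 and 9.63 FPKM in p21TKO, and its 3 values in libraries without Y-linked transcripts were the highest. The pseudogene Gstm2-ps1, outside the rule because of its hyphen, lies in the same family and stood at 30.8, 40.04 and 29.2 FPKM in DKO and 37.3, 18.6 and 14.1 FPKM in p21TKO.

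The values of the pi class gene did not overlap between libraries with and without Y-linked transcripts, while those of the 2 genotypes overlapped. Gstp1 (ENSMUSG00000060803, chromosome 19, 4035407 to 4037985), whose enzyme detoxifies electrophiles and is known for higher levels in male mouse liver, stood at 2.9, 15.1 and 21.9 FPKM in DKO replicates 1 to 3 and 23.1, 6.87 and 3.63 FPKM in p21TKO replicates 1 to 3. The 3 libraries with Y-linked transcripts were at 15.1 to 23.1 FPKM and the 3 without at 2.90 to 6.87 FPKM. The genotype difference was small beside its error (difference -0.24 ± 0.82 on the log2 scale, SE, limma adjusted p = 0.934), and it was 0.33 within the libraries with Y-linked transcripts and 0.63 within those without them. Its near copy Gstp2 reached 0.232 FPKM at most, and Gstp3 was at 0 in all 6 libraries (3 reads correspond to 0.122 to 0.171 FPKM). The pseudogene Gstp-ps, left out by its hyphen, was at 2.18, 19.4 and 13.9 FPKM in DKO and 33.6, 3.24 and 2.93 FPKM in p21TKO.

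In the theta class, whose members act on small halogenated compounds, Gstt1 (ENSMUSG00000001663, chromosome 10, 75783813 to 75798584) stood at 210.3, 182 and 128 FPKM in DKO replicates 1 to 3 and 217, 85.1 and 89.9 FPKM in p21TKO replicates 1 to 3 (difference -0.52 ± 0.43 on the log2 scale, SE, limma adjusted p = 0.682). p21TKO replicate 1 was the highest library and p21TKO replicates 2 and 3 the lowest. Gstt2 was at 21.5, 22.2 and 17.6 FPKM in DKO and 18.2, 9.65 and 11.2 FPKM in p21TKO (difference -0.65 ± 0.27 on the log2 scale, SE, limma adjusted p = 0.523). Gstt3 differed in that DKO replicate 1 and p21TKO replicates 2 and 3 were highest, at 19.4, 8.98 and 4.95 FPKM in DKO and 5.18, 11.3 and 19.3 FPKM in p21TKO (difference 0.11 ± 0.57 on the log2 scale, SE, limma adjusted p = 0.954). Gstt4 had reads in DKO replicate 1 alone (0.0842 FPKM).

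The remaining GST genes changed little between most libraries. Gsto1, an omega class enzyme with thioltransferase activity, was at 45.7, 34.7 and 43.8 FPKM in DKO and 33, 29.8 and 27.6 FPKM in p21TKO. All p21TKO values lay below all DKO values by a small step (difference -0.44 ± 0.21 on the log2 scale, SE, limma adjusted p = 0.539). Gstz1, the maleylacetoacetate isomerase of tyrosine breakdown, was at 121, 113 and 129 FPKM in DKO and 110.5, 114 and 75.2 FPKM in p21TKO, low in p21TKO replicate 3 only (difference -0.30 ± 0.26 on the log2 scale, SE, limma adjusted p = 0.697). Gstk1, the kappa class enzyme of mitochondria and peroxisomes, was at 58.6, 74.5 and 59.8 FPKM in DKO and 78.7, 61.9 and 35.4 FPKM in p21TKO, also lowest in p21TKO replicate 3 (difference -0.20 ± 0.34 on the log2 scale, SE, limma adjusted p = 0.851). Gstcd stayed between 0.525 and 0.965 FPKM and Gsto2 reached 0.0886 FPKM at most.

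The estrogen sulfotransferase gene was the member with the steepest rise, confined to 2 of the 3 p21TKO libraries. Sult1e1 (ENSMUSG00000029272, chromosome 5, 87575969 to 87591594) stood at 0.335, 0.0748 and 0.109 FPKM in DKO replicates 1 to 3 and 0.0416, 52.9 and 174 FPKM in p21TKO replicates 1 to 3. These values came from 10, 2 and 3 reads in DKO replicates 1 to 3 and from 1, 1508 and 5835 reads in p21TKO replicates 1 to 3. The gene passed the filter only through p21TKO replicates 2 and 3, so the filter set its direction. The 2 high libraries are those with the highest neutrophil and acute phase sums given above, and the part of these in the result was not tested. The group means were 0.173 ± 0.142 FPKM (SD, n = 3) for DKO against 75.5 ± 89 FPKM (SD, n = 3) for p21TKO, and the difference over all libraries did not pass (difference 4.20 ± 1.73 on the log2 scale, SE, limma adjusted p = 0.523). It was -0.068 within the libraries with Y-linked transcripts and 6.18 within those without them, so DKO replicate 1, which also lacks Y-linked transcripts, did not share the high level.

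Sult1e1 lies in a row with Sult1d1 and Sult1b1 on chromosome 5, between 87513339 and 87591594. Sult1d1, which sulfates catecholamines, stood at 108, 78.9 and 46.6 FPKM in DKO and 72.4, 155 and 149 FPKM in p21TKO (difference 0.68 ± 0.44 on the log2 scale, SE, limma adjusted p = 0.603). Its 3 libraries without Y-linked transcripts were the highest, DKO replicate 1 included. Sult1b1, which acts on thyroid hormones and phenols, was at 13.2, 10.6 and 15.2 FPKM in DKO and 10.4, 7.94 and 11.8 FPKM in p21TKO (difference -0.34 ± 0.22 on the log2 scale, SE, limma adjusted p = 0.603), with no library standing apart. Sult1a1 on chromosome 7, the main phenol sulfotransferase, had the highest mean of the SULT genes over the 6 libraries, at 307, 165 and 148 FPKM in DKO and 189.7, 288 and 273 FPKM in p21TKO. Sult2a8, described below, exceeded it in DKO replicates 2 and 3 and in p21TKO replicate 1. The 3 libraries without Y-linked transcripts were highest for Sult1a1 too (difference 0.33 ± 0.37 on the log2 scale, SE, limma adjusted p = 0.762). Sult1c2 on chromosome 17 was at 4.1, 2.29 and 2.78 FPKM in DKO and 3.02, 0.59 and 0.28 FPKM in p21TKO, with p21TKO replicate 1 at the DKO level and the others below (difference -0.98 ± 0.43 on the log2 scale, SE, limma adjusted p = 0.527). Sult1c1 was at 0 in all 6 libraries (3 reads correspond to 0.0712 to 0.0996 FPKM).

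The Sult2a genes, whose enzymes sulfate hydroxysteroids and bile acids, fell into opposite patterns. Sult2a1 (ENSMUSG00000078798, chromosome 7, 13796246 to 13837409) stood at 68.1, 0 and 0 FPKM in DKO replicates 1 to 3 and 0, 180.2 and 46.4 FPKM in p21TKO replicates 1 to 3. It had reads only in the 3 libraries without Y-linked transcripts, and in the others 3 reads correspond to 0.132 to 0.152 FPKM. Sult2a2, on the same cluster of chromosome 7, was at 64.4, 0 and 0 FPKM in DKO and 0, 78.7 and 26.7 FPKM in p21TKO, and Sult2a5 at 12.9, 8.95 and 4.70 FPKM in the same 3 libraries and at 0 in the others. Sult2a6 (0.610 to 1.76 FPKM) and Sult2a3 (0.0363 to 0.491 FPKM) had the same pattern. Because each group mixes libraries at 0 with libraries at high levels, the genotype differences had wide errors. They were a difference 2.32 ± 2.35 on the log2 scale, SE for Sult2a1 (limma adjusted p = 0.734) and a difference 1.69 ± 2.14 on the log2 scale, SE for Sult2a2 (limma adjusted p = 0.785). Within the 3 libraries with reads, p21TKO replicate 2 was above DKO replicate 1 and p21TKO replicate 3 below it for both genes.

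Sult2a8 showed the steepest fall. Sult2a8 (ENSMUSG00000030378, chromosome 7, 14410686 to 14446769), described as a bile acid sulfotransferase of mouse liver, stood at 174, 265 and 326 FPKM in DKO replicates 1 to 3 and 264, 3.54 and 0.911 FPKM in p21TKO replicates 1 to 3. All DKO libraries and p21TKO replicate 1 were at 174 FPKM or more, and p21TKO replicates 2 and 3 at 3.54 FPKM or less (81 reads in replicate 3). Group means were 255 ± 76.6 FPKM (SD, n = 3) for DKO against 89.6 ± 151 FPKM (SD, n = 3) for p21TKO (difference -4.23 ± 1.72 on the log2 scale, SE, limma adjusted p = 0.523). The difference was -0.15 within the libraries with Y-linked transcripts and -5.89 within those without them. It is thus the inverse of Sult1e1 across the libraries, with the same 2 apart. Sult2a7 was low throughout (0.231 to 1.53 FPKM), and Sult2a4 and Sult2b1 did not exceed 0.127 FPKM.

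The Sult3a genes, linked to sulfation of amines, also had reads almost only in libraries without Y-linked transcripts, but with a different order among them. Sult3a1 (ENSMUSG00000069668, chromosome 10, 33857721 to 33879532) stood at 161, 0.0804 and 0 FPKM in DKO replicates 1 to 3 and 0, 20.9 and 7.06 FPKM in p21TKO replicates 1 to 3. DKO replicate 1 was far above p21TKO replicates 2 and 3, unlike for Sult2a1 (difference 0.0045 ± 2.13 on the log2 scale, SE, limma adjusted p = 0.999). The sign of this difference flips to -0.0020 with median-of-ratios scaling. Sult3a2 repeated this order at lower levels, 13.3, 0 and 0 FPKM in DKO and 0, 2.53 and 0.636 FPKM in p21TKO (difference -0.44 ± 1.08 on the log2 scale, SE, limma adjusted p = 0.898). Within the libraries without Y-linked transcripts the differences were -3.61 for Sult3a1 and -2.58 for Sult3a2, each from 1 DKO and 2 p21TKO libraries, with no test.

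Sult5a1 on chromosome 8 was at 8.11, 14.6 and 5.77 FPKM in DKO replicates 1 to 3 and 7.16, 0.315 and 0.117 FPKM in p21TKO replicates 1 to 3. It too was near 0 in p21TKO replicates 2 and 3 and at the DKO level in p21TKO replicate 1 (difference -2.11 ± 0.77 on the log2 scale, SE, limma adjusted p = 0.523). The brain form Sult4a1 did not exceed 0.0828 FPKM, Sult6b1 had reads in p21TKO replicate 2 alone (0.0615 FPKM), and Sult6b2 was at 0 in all libraries.

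Set against the Y-linked transcripts, the values of 21 of the 45 tested members did not overlap between the 3 libraries with and the 3 without them (46.7%), compared with 17.9% of all tested genes (7.22% higher and 10.7% lower without them). Of these, 11 were higher without Y-linked transcripts (8 of them SULT genes) and 10 lower (5 UGT, 4 GST and 1 SULT gene). Sult1e1, Sult2a1, Sult2a2, Sult2a5, Sult3a1 and Sult3a2 stayed under 1 FPKM in every library with Y-linked transcripts. They passed the filter only through libraries without them, so the filter set their direction here. Sult1e1 and Sult2a8 are counted although their wide step lay between DKO replicate 1 (0.335 and 174 FPKM) and p21TKO replicates 2 and 3. Because p21TKO replicates 2 and 3 are 2 of the 3 libraries without these transcripts, this division and the genotype are partly confounded. Of 13 genes known to be higher in male mouse liver, 12 were lower in all 3 libraries without Y-linked transcripts. They summed to 317.8, 263.4 and 262.1 FPKM there and to 7170.0, 15400 and 9696 FPKM in the others. Of 15 genes known to be higher in females, 11 were higher in all 3 libraries without Y-linked transcripts. These 15 summed to 1154 FPKM in DKO replicate 1 and to 641.5 and 454.7 FPKM in p21TKO replicates 2 and 3, and to 50.2 to 63.5 FPKM in the others.

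**Figure D4:**
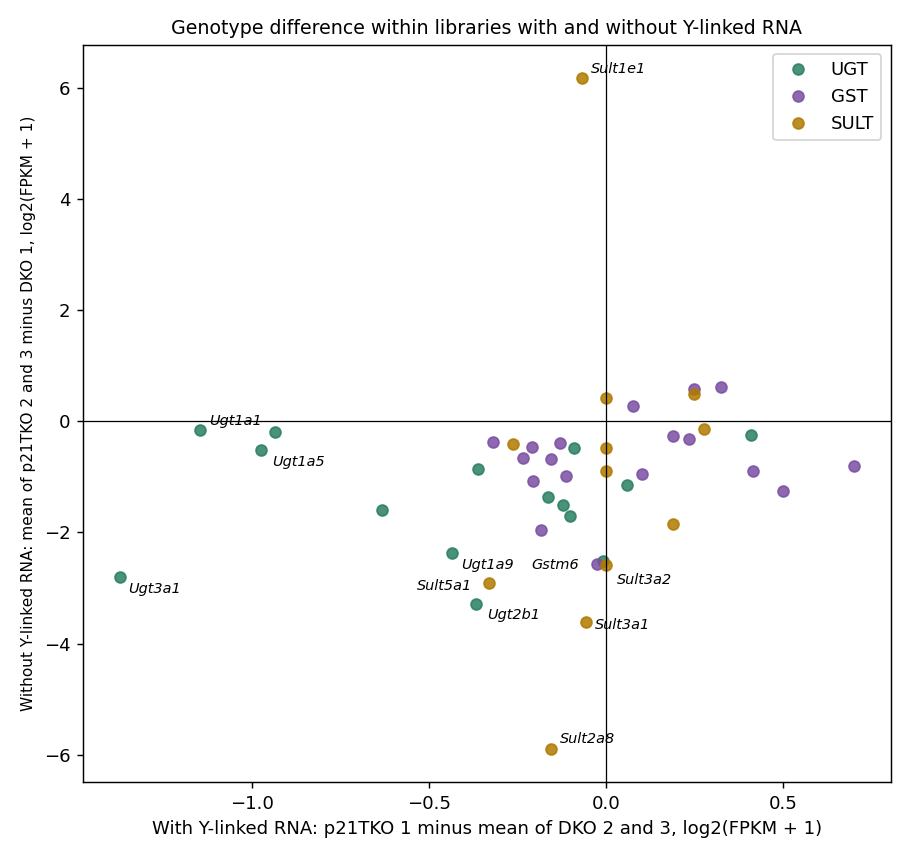
Difference in log2(FPKM + 1) between p21TKO and DKO within the libraries with Y-linked transcripts (x axis; p21TKO replicate 1 minus the mean of DKO replicates 2 and 3) and within those without them (y axis; the mean of p21TKO replicates 2 and 3 minus DKO replicate 1). Each point is 1 of the 45 tested members. Sult1e1 (6.18) and Sult2a8 (-5.89) are far from 0 on the y axis and close to 0 on the x axis, while Ugt3a1 is low on both (-1.37 and -2.81).

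The genes of donor supply, transport and turnover were examined as lists, and none of their members passed the test over all genes (limma). For PAPS, the sulfonate donor, 7 of 7 tested genes had lower means in p21TKO (median log2 difference -0.34), and Papss1, Slc26a1 and Impad1 had separated groups, against 8.49% of all tested genes separated in that direction. Slc35b3 was nearly level (-0.021), and Slc26a2, under the filter, had a slightly higher FPKM mean in p21TKO (0.399 against 0.370 in DKO). Only Papss1 and Papss2 of this list encode enzymes that make PAPS. Papss1 was at 2.85, 4.14 and 3.61 FPKM in DKO and 1.54, 1.84 and 1.31 FPKM in p21TKO (difference -0.82 ± 0.17 on the log2 scale, SE, limma adjusted p = 0.369), below DKO in every p21TKO library. Papss2 was at 85.6, 42 and 47.1 FPKM in DKO and 43.9, 10.7 and 22.5 FPKM in p21TKO, with p21TKO replicate 1 among the DKO values (difference -1.29 ± 0.53 on the log2 scale, SE, limma adjusted p = 0.523). The sulfate transporter gene Slc26a1 was at 45.5, 31.2 and 43.6 FPKM in DKO and 26.8, 25.6 and 13 FPKM in p21TKO (difference -0.90 ± 0.33 on the log2 scale, SE, limma adjusted p = 0.523). For UDP-glucuronic acid, 4 of 5 genes had lower means (median -0.38). The dehydrogenase Ugdh, which makes it, was at 20.5, 31.6 and 25.2 FPKM in DKO and 31.6, 20.2 and 5.59 FPKM in p21TKO (difference -0.67 ± 0.57 on the log2 scale, SE, limma adjusted p = 0.688), and the transporter Slc35d1 at 15.9, 26.5 and 16.8 FPKM in DKO and 22.3, 8.36 and 11.5 FPKM in p21TKO (difference -0.53 ± 0.38 on the log2 scale, SE, limma adjusted p = 0.632). Slc35b1, a transporter of the endoplasmic reticulum, was the exception, higher in every p21TKO library than in any DKO library, at 13.7, 16.5 and 16 FPKM in DKO and 20.7, 26.5 and 38 FPKM in p21TKO (difference 0.81 ± 0.26 on the log2 scale, SE, limma adjusted p = 0.523).

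Glutathione synthesis and turnover genes were evenly divided, with 5 of 11 tested genes higher, 6 lower and a median of -0.012. Gss, glutathione synthetase, was at 8.69, 15.1 and 10.6 FPKM in DKO and 17.7, 14.9 and 23.9 FPKM in p21TKO (difference 0.68 ± 0.27 on the log2 scale, SE, limma adjusted p = 0.523). Cth, which makes cysteine, was at 108, 110.2 and 111 FPKM in DKO and 99.1, 167 and 222 FPKM in p21TKO (difference 0.49 ± 0.34 on the log2 scale, SE, limma adjusted p = 0.627), and the aminopeptidase gene Lap3 at 61.2, 58.5 and 90.6 FPKM in DKO and 67.2, 62.8 and 36.4 FPKM in p21TKO (difference -0.35 ± 0.33 on the log2 scale, SE, limma adjusted p = 0.714).

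Other transferases of phase II metabolism had 7 of 11 tested genes with lower means (median -0.13). Inmt, an amine methyltransferase, was at 369, 661 and 464 FPKM in DKO and 413, 48.7 and 14 FPKM in p21TKO (difference -2.84 ± 1.12 on the log2 scale, SE, limma adjusted p = 0.523), low in p21TKO replicates 2 and 3 alone. Mgst1, the microsomal GST outside the naming rule, was at 1029, 1609.5 and 1559 FPKM in DKO and 1441, 889.7 and 615 FPKM in p21TKO (difference -0.57 ± 0.42 on the log2 scale, SE, limma adjusted p = 0.642), and Nnmt, the nicotinamide methyltransferase, at 97.9, 96.7 and 96.6 FPKM in DKO and 69.9, 333 and 139.9 FPKM in p21TKO (difference 0.61 ± 0.54 on the log2 scale, SE, limma adjusted p = 0.703). Of 6 tested hydrolases 5 had lower means (median -0.30). Those that act on sulfates or glucuronides went both ways, with log2 differences of -0.39 for Arsa, -0.12 for Gusb and 0.35 for Arsg, and the other 3 are a carboxylesterase and epoxide hydrolases. The carboxylesterase Ces1d was at 306, 161 and 276 FPKM in DKO and 164, 137 and 67.7 FPKM in p21TKO (difference -1.05 ± 0.43 on the log2 scale, SE, limma adjusted p = 0.523), the sulfatase Arsg at 2.93, 3.26 and 4.15 FPKM in DKO and 4.85, 4.02 and 5.13 FPKM in p21TKO (difference 0.35 ± 0.17 on the log2 scale, SE, limma adjusted p = 0.536) and the epoxide hydrolase Ephx2 at 128, 211 and 249 FPKM in DKO and 275, 100.02 and 78.7 FPKM in p21TKO (difference -0.54 ± 0.53 on the log2 scale, SE, limma adjusted p = 0.726).

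The 4 tested exporters of conjugates all had lower means (median -0.56), and 3 had separated groups, all lower, against 8.49% of all tested genes. The 3 exporters under the filter had higher FPKM means in p21TKO, with Abcc4 at 0.259 and 0.770, Abcc5 at 0.147 and 0.327 and Abcc1 at 0.0422 and 0.0805 FPKM in DKO and p21TKO. Abcc2, which moves glucuronides and glutathione conjugates into bile, was at 62.7, 48.6 and 69.7 FPKM in DKO and 37.7, 33.4 and 37.5 FPKM in p21TKO (difference -0.71 ± 0.23 on the log2 scale, SE, limma adjusted p = 0.523). Abcc3, its counterpart towards the blood, was at 37.9, 36.3 and 32.5 FPKM in DKO and 29.2, 25.1 and 25.5 FPKM in p21TKO (difference -0.41 ± 0.19 on the log2 scale, SE, limma adjusted p = 0.535) and Abcc6 at 22.3, 19.1 and 20.3 FPKM in DKO and 17.6, 9.27 and 3.05 FPKM in p21TKO (difference -1.23 ± 0.52 on the log2 scale, SE, limma adjusted p = 0.523). Of 20 transcription factors linked to these genes 14 had lower means (median -0.13), with 4 separated lower and 1 higher, where the shares of all tested genes were 8.49% and 6.93%. The aryl hydrocarbon receptor Ahr was at 10.6, 6.98 and 10.48 FPKM in DKO and 3.07, 4.17 and 7.88 FPKM in p21TKO (difference -0.84 ± 0.32 on the log2 scale, SE, limma adjusted p = 0.523). The glucocorticoid receptor Nr3c1 was at 10.2, 7.89 and 9.98 FPKM in DKO and 7.45, 7.14 and 4.74 FPKM in p21TKO (difference -0.49 ± 0.21 on the log2 scale, SE, limma adjusted p = 0.523). Nfe2l2, which encodes the antioxidant regulator NRF2, was at 13.2, 11.1 and 12.1 FPKM in DKO and 8.63, 9.1 and 9.81 FPKM in p21TKO (difference -0.36 ± 0.16 on the log2 scale, SE, limma adjusted p = 0.527), with all p21TKO libraries below DKO.

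Macrophage and endothelial markers were also highest in p21TKO replicates 2 and 3, and their part in the results above was not tested. The 14 Kupffer cell and macrophage markers summed to 80.4 to 162 FPKM in DKO and to 56.7, 460.4 and 243 FPKM in p21TKO replicates 1 to 3. Liver endothelial markers (14 genes) summed to 26.8 to 43.8 FPKM in DKO and to 25.8, 123.3 and 66.4 FPKM in p21TKO. For 12 stellate cell and fibroblast markers the range was 32.9 to 48.9 FPKM in DKO and 51.6 to 58.2 FPKM in p21TKO. A large part of these sums was Dcn, at 17.2, 7.28 and 10.2 FPKM in DKO and 13.6, 30 and 31.1 FPKM in p21TKO. Of the 9 tested markers 6 had higher and 3 lower means in p21TKO, and 1 had separated groups. The sum therefore does not measure stellate cell content. The 10 cholangiocyte markers summed to 10.3 to 22.8 FPKM in DKO and 10.97 to 32.8 FPKM in p21TKO. The largest part was Spp1 (6.53 to 17.6 and 5.49 to 22 FPKM). Of the 2 tested markers 1 had a higher and 1 a lower mean. Under the filter, Krt19 (0.0673 to 0.326 and 0.379 to 3.03 FPKM), Sox9 and Krt7 were higher in every p21TKO library than in any DKO library, while Tspan8, Cldn7 and Cftr overlapped. The 12 lymphocyte markers summed to 2.63 to 4.08 FPKM in DKO and 0.537 to 1.74 FPKM in p21TKO. The 8 erythroid markers summed to 119 to 669 FPKM in DKO and 20.4 to 856 FPKM in p21TKO. Of 10 intestinal and pancreatic epithelium markers 2 were at 0 in all libraries, and the sum was 47.8 to 69.4 FPKM in DKO and 21.03 to 77.3 FPKM in p21TKO. Most of it was Fabp2 (39.9 to 59.5 FPKM in DKO and 16.4 to 57.3 FPKM in p21TKO). Apart from Fabp2, Cela1 and Lgals4, no marker exceeded 0.645 FPKM.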

How the data were processed

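The data are 6 polyA RNA libraries of mouse liver, 3 of each genotype. The authors deposited FPKM per gene. The submitters' processing notes list, without roles, the tools DESeq2 1.20.0, featureCounts 1.5.0-p3, fastp, CASAVA 1.8 and HISAT2 2.0.5. The build they name is human (GRCh38) while the identifiers are those of mouse genes. Which build was used could therefore not be settled here. Here, genes with a mean of at least 1 FPKM over the 6 libraries were compared on log2(FPKM + 1) with limma 3.58.1 (R 4.3.3, variance trend, two-sided), with Benjamini-Hochberg adjustment over all 9538 tested genes and a threshold of 0.05. Fold changes on this scale understate those of low genes. Multiplying FPKM by GENCODE M21 exon length gave whole reads (within 0.05 reads) for 99.31% to 99.38% of values of up to 2000 reads, for 55480 of 55573 genes matched. The limit given for a value of 0 is 3 reads and covers counting error only. The fit was run on simulated data with independent values per library. These held no division by Y-linked transcripts and no libraries set apart, so the simulation does not cover those features.

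The genes described in full were, within each UGT, GST and SULT class, the up to 3 of highest mean and the up to 3 of smallest p. For each pathway list these were the 3 of smallest p. Members and lists were chosen with earlier results of these data known. The division by Y-linked transcripts is a property of the libraries and not a labelled group. Alternatives were the pseudocount (0.1), the filter (none, or 5 FPKM), scaling, variance settings, limma voom on recovered reads, a replicate block, a term for Y-linked transcripts and leaving out libraries. Leaving out p21TKO replicates 2 and 3 together was chosen after seeing the data.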

Additional observations from a re-analysis of the deposited data

How the results depend on the processing

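Over all genes, the 3 higher and 4 lower calls (limma) became 5 higher with a pseudocount of 0.1, 0 higher and 1 lower with no filter, 2 lower with a mean of at least 5 FPKM, and 0 higher and 2 lower with limma voom on recovered reads. Leaving out 1 library gave 0 to 225 higher and 1 to 270 lower calls, the upper ends without p21TKO replicate 1, and leaving out p21TKO replicates 2 and 3 together gave 0 lower. Members called were 0 under every alternative run except without p21TKO replicate 1 (range 0 to 1 higher and 0 to 8 lower). With a replicate block there were 0 higher and 0 lower calls over all genes and 0 members. Libraries of the same number did not deviate together (correlations -0.439, -0.487 and -0.072). Each such pair differed in Y-linked transcripts, and pairs alike in them gave 0.032 to 0.44. These values therefore cannot show whether libraries of the same number were paired.
Leaving out 1 library, the median log2 difference ranged over -0.86 to -0.35 for the conjugating enzymes, -1.42 to -0.60 for the UGT genes, -0.85 to -0.27 for the GST genes, -0.22 to 0.90 for the SULT genes, and the number of members with separated groups over 8 to 26. Separation becomes more frequent in smaller groups, and the share of all tested genes was not taken in these settings. The count is therefore not a result about the members.
Without p21TKO replicates 2 and 3 together the medians were -0.15 for all tested members, -0.45 for UGT, -0.006 for GST and -0.28 for SULT genes. In that setting 20 members were separated, a count that rises when a group is 1 library and that has no share of all tested genes beside it. With a term for Y-linked transcripts the SULT median was -0.39.
Of 642 values of single genes under alternatives, 586 kept their direction and side of the threshold, 9 passed it (all without p21TKO replicate 1) and 47, in 22 genes, changed sign. The cause of these changes was not tested.
Without p21TKO replicates 2 and 3 together the reversed log2 differences were 0.80 for Gsta2, 0.059 for Gsta4, 0.30 for Gstk1, 0.52 for Gstm1, 0.18 for Gstm2, 0.10 for Gstm6, 1.09 for Gstp1, 0.35 for Gstt1, -0.79 for Gstt3, -0.046 for Sult1a1, 0.012 for Sult1c2, -0.023 for Sult1d1, -0.17 for Sult1e1, -2.04 for Sult2a1, -2.01 for Sult2a2, 0.10 for Sult2a8, -2.48 for Sult3a1, -1.83 for Ugt1a5, 0.34 for Ugt2b5.
With a term for Y-linked transcripts the reversed log2 differences were 0.48 for Gstp1, -0.34 for Gstt3, -0.24 for Sult2a2, -1.83 for Sult3a1, -0.74 for Ugt1a5.
With median-of-ratios scaling the reversed log2 differences were -0.002 for Sult3a1.
With pseudocount 0.1 the reversed log2 differences were 0.17 for Sult3a2.
With limma voom on recovered reads the reversed log2 differences were 0.94 for Sult3a2.
Leaving out 1 library, the log2 difference took either sign and ranged over -0.99 to 0.01 for Gsta2, -0.44 to 0.12 for Gstk1, -0.25 to 0.009 for Gstm2, -1.004 to 0.29 for Gstp1, -0.30 to 0.58 for Gstt3, -1.24 to 2.43 for Sult3a1, -1.08 to 0.84 for Sult3a2, -0.81 to 0.52 for Ugt1a1, -0.70 to 1.2 for Ugt1a5, -0.86 to 0.064 for Ugt1a6b.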
